A study of Mus musculus with 6 samples.

Results

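The genes described here are 10 genes of aerobic glycolysis in the mouse retina, chosen by symbol: the glucose transporter gene Slc2a1, the hexokinase genes Hk1 and Hk2, the phosphofructokinase genes Pfkl and Pfkp, the aldolase genes Aldoa and Aldoc, the pyruvate kinase gene Pkm, and the lactate dehydrogenase genes Ldha and Ldhb. Each of the 10 matched 1 row in a table of 20175 genes. All 10 passed the filter on low values (a mean of at least 10 normalised counts over the libraries), as did 16064 genes in all. Poly-A RNA was sequenced from 6 samples of retina of mice at postnatal day 2 (P2). The 3 Zeb2 mutant samples came from Zeb2 loxp/loxp αCre mice, which carry loxP sites in both copies of Zeb2, a zinc-finger transcription factor gene. αCre is a Cre recombinase under a retinal enhancer of Pax6, known to act in progenitors of the peripheral retina, so cells elsewhere in the retina can keep Zeb2. The other 3 samples are labelled control, and the sources used here name neither their genotype nor any strain. The labels do not state whether each sample is from its own animal, so p-values measure only sample-to-sample spread, part of which may be technical.

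Glycolysis splits glucose into pyruvate, and lactate dehydrogenase turns pyruvate into lactate. Dividing retinal progenitors and, later, photoreceptors are known for running this route to lactate even where oxygen is present. Several steps are served by paralogous enzymes: Hk2 and Ldha are usually named for proliferating cells and photoreceptors, Hk1 is widespread in neurons, and Aldoc is the aldolase of astrocytes and other glia.

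The promoters of Aldoc, Hk2 and Ldha are shown because Aldoc is the member that was called between the groups, Hk2 lay lower in every mutant library, and Ldha is a textbook target of the factors whose motifs are marked. Each is a 300-base RefSeq window on GRCm38.p6, from 250 bases before to 50 bases after an annotated start, printed 5′ to 3′ on the strand of the gene. Capitals mark ACGTG on either strand, the core letters of hypoxia response elements, including where they fall inside CACGTG, the E-box that Myc proteins bind.
Aldoc, chr11:78322823-78323122, plus strand: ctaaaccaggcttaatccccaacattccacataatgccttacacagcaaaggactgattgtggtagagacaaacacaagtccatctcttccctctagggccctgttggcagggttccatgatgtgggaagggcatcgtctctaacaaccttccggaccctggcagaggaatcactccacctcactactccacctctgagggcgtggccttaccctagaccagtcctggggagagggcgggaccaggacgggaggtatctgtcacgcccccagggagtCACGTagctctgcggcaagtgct
Hk2, chr6:82774405-82774704, minus strand: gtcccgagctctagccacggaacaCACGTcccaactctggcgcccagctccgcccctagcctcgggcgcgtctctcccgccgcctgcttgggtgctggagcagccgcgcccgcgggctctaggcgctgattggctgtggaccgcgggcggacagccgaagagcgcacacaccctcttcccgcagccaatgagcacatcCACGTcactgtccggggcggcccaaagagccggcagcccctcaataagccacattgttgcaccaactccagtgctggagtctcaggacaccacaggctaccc
Ldha, chr7:46845554-46845853, plus strand: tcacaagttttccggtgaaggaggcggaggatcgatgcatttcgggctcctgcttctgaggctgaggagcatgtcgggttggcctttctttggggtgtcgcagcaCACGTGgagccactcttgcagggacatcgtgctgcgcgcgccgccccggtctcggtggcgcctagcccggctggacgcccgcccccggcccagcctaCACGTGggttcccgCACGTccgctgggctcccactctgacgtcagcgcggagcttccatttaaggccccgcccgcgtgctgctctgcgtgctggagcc
The Ldha window held the letters in 3 places, 2 of which were CACGTG, the Hk2 window in 2 places and the Aldoc window in 1. RefSeq gave 16 such windows for the 10 genes, some of them overlapping windows of the same gene, and 8 of the 16 held ACGTG. Aldoc and Ldha each had a second window, not shown, with 0 ACGTG. Of the 16, only the Ldha window shown matched the first bases of no transcript in the GENCODE annotation. The same letters were in 19.6% of all 32851 promoter windows of that length. CACGTG was found in 1 of the 16, against 7.15% of all windows. CACCTG, an E-box that Zeb proteins bind, was also searched on both strands and was found in 2 of the 16, in a window of Hk1 and another window of Ldha, against 20.2% of all. These matches describe letters only.

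The libraries held 26041200 to 32614805 reads on genes, and each member had at least 490 reads in each library. Zeb2, the targeted gene, was at 5581.4, 4273.6 and 5049.7 normalised counts in the mutant libraries, against 5989.7, 6448.7 and 5916.7 in the control libraries (limma adjusted p = 0.129). It was called in 2 of 19 alternative settings, without mutant library 1 (limma adjusted p = 0.0375) and by DESeq2 (adjusted p = 0.0155). Those 2 settings called 3.74% and 5.66% of all genes tested. The highest limma adjusted p for Zeb2 was 0.316, without control library 1. The count covers the whole gene, so transcripts that lost only the deleted part would still be counted. The 9 genes listed as markers of retina, among them Rax, Six6 and Crx, were all present, with summed normalised counts of 124901 to 131260 in the mutant and 126781 to 128514 in the control libraries. Of the 9, 0 were called with limma and 4 had an unadjusted p under 0.05, against 1.15% and 17.3% of all genes tested. Every mutant library was above every control library for 1 (Six3) and below for 2 (Pax6 and Lhx2), against 11.5% and 11.7%. Other tissue was not spread evenly: summed mesenchyme and pericyte markers were 6957.1, 2676.1 and 797.2 in mutant libraries 1, 2 and 3, against 618.7 to 1576.8 in the control libraries.

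Per length of exon, the most abundant members were the genes of the last steps of the pathway. Ldha stood at 11431 ± 497 normalised counts per kb of exon in the mutants and 11146 ± 1305 in the controls (SD, n = 3 each), and Pkm at 11267 ± 267 in mutants and 10325 ± 986 in controls. Their ranges overlapped, and Pkm came first when the longest coding transcript was used as the length. Aldoa followed at 7023 ± 34.5 per kb in mutants and 5977 ± 1175 in controls, and Slc2a1 at 4722 ± 467 in mutants and 4340.0 ± 97.2 in controls, with ranges that overlapped slightly. Ldhb came next at 1875 ± 77.7 per kb in mutants and 2054 ± 219 in controls, then Pfkl at 944 ± 31.7 in mutants and 898 ± 123 in controls. Hk1 followed at 564 ± 24.0 per kb in mutants and 497 ± 36.2 in controls. Ldhb, Pfkl and Hk1 each lay clear of their neighbours in every library. Aldoc, at 288 ± 26.6 per kb in mutants and 183 ± 20.2 in controls, overlapped with Pfkp, at 222 ± 40.5 in mutants and 199 ± 29.4 in controls, and their order turned round with the other length. Hk2 was lowest, with 97.9 to 122 per kb over all 6 libraries.

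**Figure D1:**
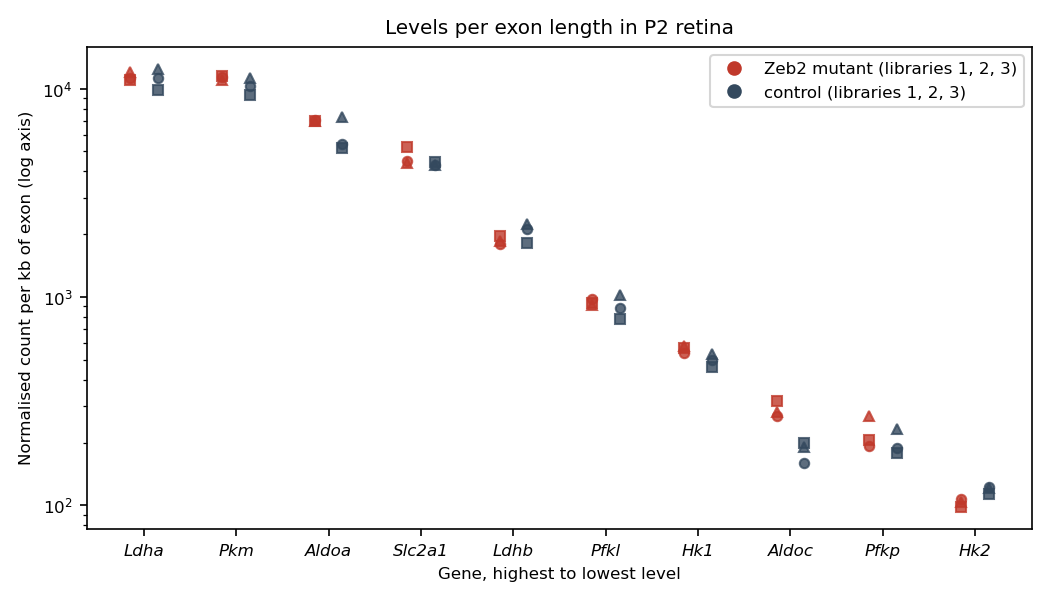
Normalised counts per kb of exon (log axis) for the 10 genes, ordered from highest to lowest, with 1 point per library (circle, square and triangle for libraries 1, 2 and 3; red for Zeb2 mutant, dark blue for control). Ldha and Pkm lie highest, with group means of 10325 to 11431 per kb, and Hk2 lowest, at 97.9 to 122.

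Aldoc rose in the mutant retinas and was the only member of the 10 called over all genes at a limma adjusted p under 0.05, where 1.15% of all 16064 genes were called. Aldoc (chromosome 11, 78322968 to 78327781, plus strand; GRCm38, as for all gene coordinates here) encodes aldolase C, which splits fructose bisphosphate into triose phosphates. It had 872.8, 1038.2 and 910 normalised counts in the mutant libraries, against 521.8, 647.3 and 618.6 in the control libraries. Every mutant library was higher than every control library. The means were 940.3 ± 86.8 in mutants and 596 ± 65.8 in controls (SD, n = 3 each), a 1.58-fold difference with a 95% interval of 1.35 to 1.85 (limma adjusted p = 0.0237). The direction held without any 1 library, but the call did not. Leaving out control library 1 gave a limma adjusted p of 0.0945, and control library 3 one of 0.0554. Leaving out mutant library 2 gave 0.0828, and mutant library 3 gave 0.0583. It was 0.103 without mutant libraries 1 and 2 together, and ranged from 9.13e-07 to 0.103 over 19 alternatives.

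Markers of astrocytes, which are known to express Aldoc, also lay higher in the mutant libraries. All 8 astrocyte markers had a log2 fold change above 0 (median 0.76), and 0 were called with limma, against 1.15% of all genes tested. An unadjusted limma p under 0.05 was reached by 6 of the 8, against 17.3% of all genes tested. For 4 of the 8, Pax2, Aldh1l1, Slc7a10 and Cxcl12, every mutant library was above every control library, against 11.5% of all genes tested. Pax2, a transcription factor gene of astrocyte precursors, had 363.5, 372.5 and 351.4 in the mutant libraries, against 227.9, 269.6 and 286.9 in the control libraries. The other 4 overlapped, and the list's summed normalised count was 8341.4, 6621.9 and 2795 in mutant libraries 1, 2 and 3, against 2274.5 to 2960.9 in the control libraries. That sum followed mainly Gfap, the astrocyte filament gene, at 5130.2, 3772.4 and 234.6 in the mutant libraries, against 143.8, 236 and 466.3 in the control libraries. In mutant library 3 Gfap and the sum thus lay within the control range, while Aldoc lay above every control library. The mesenchyme and pericyte sums also fell from mutant library 1 to 3, at 6957.1, 2676.1 and 797.2. The 10 Müller glia markers had 7 members above 0 and 3 below, with sums of 83207.1 to 93369.3 in mutants and 78283.9 to 84463.3 in controls. Of these, 0 were called higher and 1 was called lower with limma, against 0.928% and 0.218% of all genes tested. Every mutant library was above every control library for 2 of the 10 and below for 3, against 11.5% and 11.7%. The part of glial cells in the Aldoc difference was not tested. In whole tissue, more cells of a type and more RNA per cell cannot be told apart.

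Aldoa (chromosome 7, 126795234 to 126800751, minus strand), the abundant aldolase of most tissues, did not pass the test. It had 20552.4, 20354.8 and 20422.3 normalised counts in the mutant libraries, against 15847, 15025.9 and 21320.3 in the control libraries. The mutant libraries were close together and above control libraries 1 and 2, while control library 3 was above all of them. The difference was 1.19-fold with a 95% interval of 0.991 to 1.43 (limma adjusted p = 0.311). Without control library 3 it was called, with a limma adjusted p of 0.0401 and a log2 fold change of 0.41 in place of 0.25, so control library 3 decided this value.

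The hexokinases trap glucose in the cell as glucose 6-phosphate, and Hk1 and Hk2 lay in opposite directions. Hk2 (chromosome 6, 82725025 to 82774454, minus strand), the inducible hexokinase of growing cells, had 641.4, 584.4 and 618.5 normalised counts in the mutant libraries, against 730.5, 676.7 and 722.7 in the control libraries. Every mutant library was lower than every control library. The means were 615 ± 28.7 in mutants and 709.97 ± 29.1 in controls (SD, n = 3 each), a fold of 0.866 with a 95% interval of 0.778 to 0.964, which did not pass over all genes (limma adjusted p = 0.163). Hk1 (chromosome 10, 62268855 to 62379908, minus strand), the constitutive hexokinase of neurons, had 4578.6, 4873.4 and 4972.5 in the mutant libraries, against 4248.7, 3924.6 and 4542.5 in the control libraries. Here every mutant library was higher, although mutant library 1 and control library 3 nearly met. The fold was 1.14 with a 95% interval of 1.03 to 1.25 (limma adjusted p = 0.173). Hkdc1, a hexokinase-family gene outside the 10, had 4499.3, 3626.3 and 4393.6 in the mutant libraries, against 5036.7, 4651.6 and 5925.2 in the control libraries. It was lower in every mutant library, like Hk2, and likewise not called (fold 0.802, 95% interval 0.681 to 0.946, limma adjusted p = 0.166).

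Slc2a1 (chromosome 4, 119108711 to 119137983, plus strand) encodes GLUT1, the transporter that brings glucose into retinal cells and across the endothelium of the blood-retina barrier. It had 15806.8, 18433.3 and 15426.4 normalised counts in the mutant libraries, against 15031.3, 15609.2 and 15007.5 in the control libraries. Mutant library 2 stood alone at the top, and the other mutant libraries lay near the controls. The fold was 1.08 with a 95% interval of 0.971 to 1.21 (limma adjusted p = 0.439). Its log2 fold change of 0.12 was 0.038 without mutant library 2. Of 10 endothelial markers 0 were called with limma (0 at an unadjusted p under 0.05), against 1.15% (17.3%) of all genes tested. Of the 10 markers 3 were above 0 and 7 below. Their sums, nearly all Kdr, were 17968.9 to 20110.7 in mutants and 18590.3 to 21182.3 in controls, and the part of endothelial cells in the Slc2a1 values was not tested.

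Phosphofructokinase commits sugar phosphate to glycolysis, and its liver-type and platelet-type subunit genes are Pfkl and Pfkp. Pfkl (chromosome 10, 77986947 to 78010083, minus strand) had 6532.4, 6247.3 and 6119.2 normalised counts in the mutant libraries, against 5928, 5205.5 and 6846.7 in the control libraries. The mutant values all fell inside the control range. The fold was 1.06 with a 95% interval of 0.919 to 1.22 (limma adjusted p = 0.696). Pfkp (chromosome 13, 6579768 to 6648777, minus strand) had 2568.8, 2763.3 and 3591.3 in the mutant libraries, against 2519.4, 2377.2 and 3119.1 in the control libraries. Library 3 was the high one in both groups, and the groups overlapped. The fold was 1.11 with a 95% interval of 0.897 to 1.37, the widest interval on the log2 scale among the 10 (limma adjusted p = 0.622). The log2 fold change of 0.15 was 0.0059 without mutant library 3, 0.070 without control library 2 and 0.27 without control library 3.

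Pkm (chromosome 9, 59656368 to 59679375, plus strand) encodes the pyruvate kinase that makes pyruvate in the last step, as splice forms M1 and M2, which a count per gene cannot tell apart. It had 56786.9, 57406.3 and 54848 normalised counts in the mutant libraries, against 51746, 46648.3 and 56513.3 in the control libraries. The mutants lay high, but control library 3 lay among them. The fold was 1.09 with a 95% interval of 0.967 to 1.24 (limma adjusted p = 0.442).

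Lactate dehydrogenase joins the muscle-type subunit of Ldha, which favours lactate formation, and the heart-type subunit of Ldhb. Ldha (chromosome 7, 46841475 to 46855627, plus strand) had 37396.9, 36455.5 and 39657.2 normalised counts in the mutant libraries, against 37027.8, 32507.7 and 41141.1 in the control libraries. The mutant values lay inside the control range, with a fold of 1.03 and a 95% interval of 0.897 to 1.18 (limma adjusted p = 0.850). Ldhb (chromosome 6, 142490249 to 142507957, minus strand) had 2830.8, 3072.9 and 2926 in the mutant libraries, against 3325.5, 2841.9 and 3506.7 in the control libraries. Control library 2 lay as low as the mutants, and the other controls lay above them. The fold was 0.916 with a 95% interval of 0.811 to 1.03 (limma adjusted p = 0.444).

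**Figure D2:**
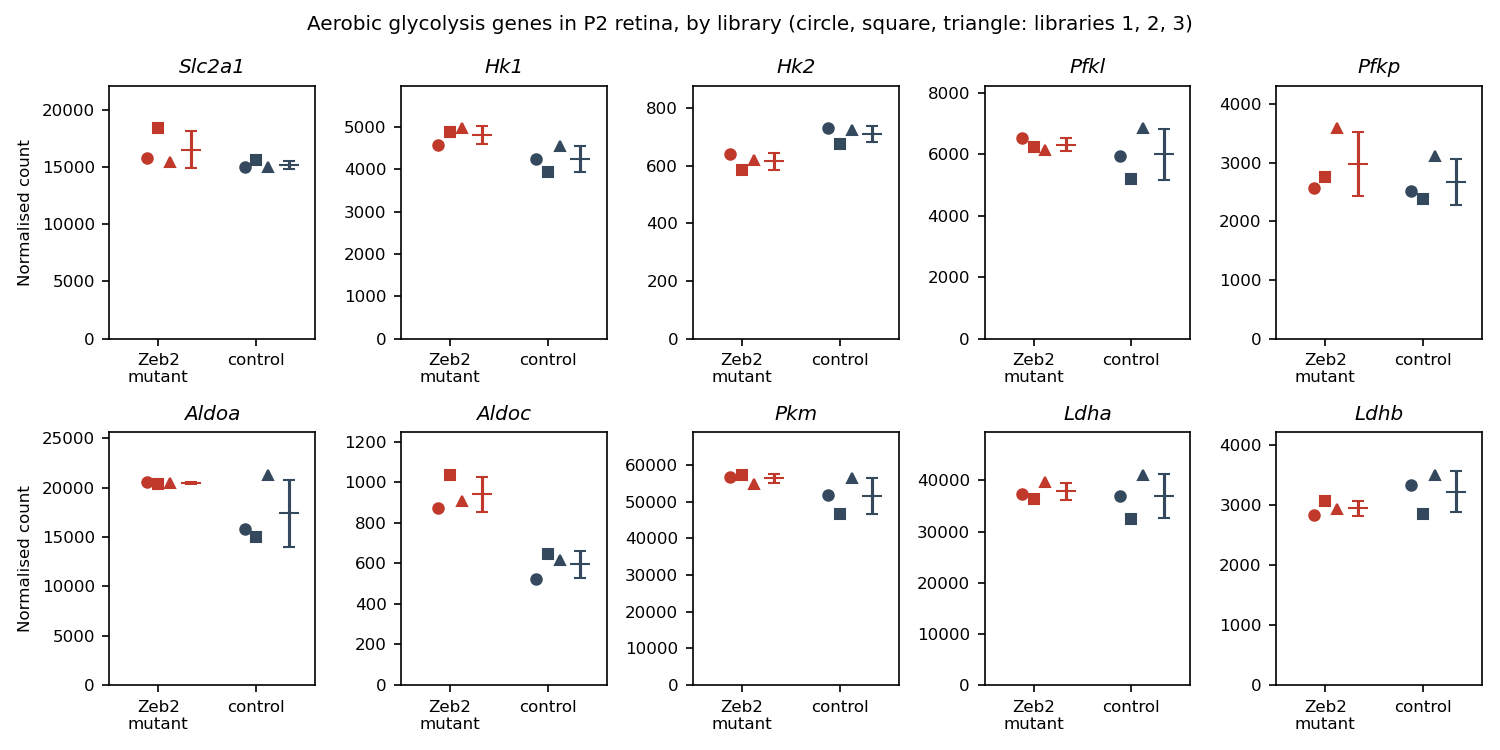
Normalised counts of the 10 genes in the 3 Zeb2 mutant libraries (red, left) and the 3 control libraries (dark blue, right), with axes that start at 0; the bar beside each group is its mean ± SD. Aldoc and Hk1 lie higher and Hk2 lies lower in every mutant library, and the groups of the other 7 genes overlap.

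Over the 10 genes, 1 was called higher and 0 were called lower with limma, against 0.928% and 0.218% of all genes tested; Aldoc, 1 of 10, was likewise the only one called by edgeR and by DESeq2 on the recovered reads, which called 1.12% and 5.66% of all genes. An unadjusted limma p under 0.05 was reached by 3 of the 10 (Aldoc, Hk1 and Hk2), against 17.3% of all genes. Groups did not overlap for 3 of the 10, 2 of them higher in the mutants and 1 lower, against 11.5% higher, 11.7% lower and 23.2% in either direction over all genes tested. The call of 1 member also stood without mutant library 1 (3.74% of all genes called) and with the replicate block (1.54%). Without control library 1 (0.168%), 0 of the 10 were called. The same held without mutant library 2 or mutant library 3, where 58 and 79 of all genes tested were called. Without control library 3, where 94 of all genes were called, the 1 member called was Aldoa instead of Aldoc. The log2 fold change was above 0 for 8 of the 10, with a median of 0.12, against 48% above 0 and a median of -0.0067 over all genes tested. Together the 10 genes took 0.540%, 0.553% and 0.550% of the reads of the mutant libraries, against 0.493%, 0.456% and 0.556% in the control libraries. The mutant shares were within a narrow band that lay inside the span of the controls.

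Ratios between paralogs within a library do not depend on how that library was scaled. Hk2 made up 12.3%, 10.7% and 11.1% of the summed Hk1 and Hk2 counts, Hkdc1 left out, in the mutant libraries, against 14.7%, 14.7% and 13.7% in the control libraries. The groups did not overlap, and the log2 ratio of Hk2 to Hk1 was lower by a mean difference of -0.39 (exact 2-sided permutation p = 0.1, the smallest that 3 against 3 samples allow). Ldhb made up 7.04%, 7.77% and 6.87% of the Ldha and Ldhb counts in the mutants, against 8.24%, 8.04% and 7.85% in the controls. These groups did not overlap either, but mutant library 2 and control library 3 were nearly level, and the difference in log2 ratio was -0.17 (exact permutation p = 0.1). Aldoc made up 4.07%, 4.85% and 4.27% of the aldolase A and C counts in the mutants, against 3.19%, 4.13% and 2.82% in the controls, with an overlap at mutant library 1 and control library 2 (difference in log2 ratio 0.41, exact permutation p = 0.2). Pfkp made up 28.2%, 30.7% and 37.0% of the Pfkl and Pfkp counts in the mutants, against 29.8%, 31.4% and 31.3% in the controls. The difference of 0.069 on the log2 scale turned to -0.095 without mutant library 3 (exact permutation p = 0.9 over all samples). These are shares of counts, not corrected for length, and no p was adjusted over the 4 ratios.

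**Figure D3:**
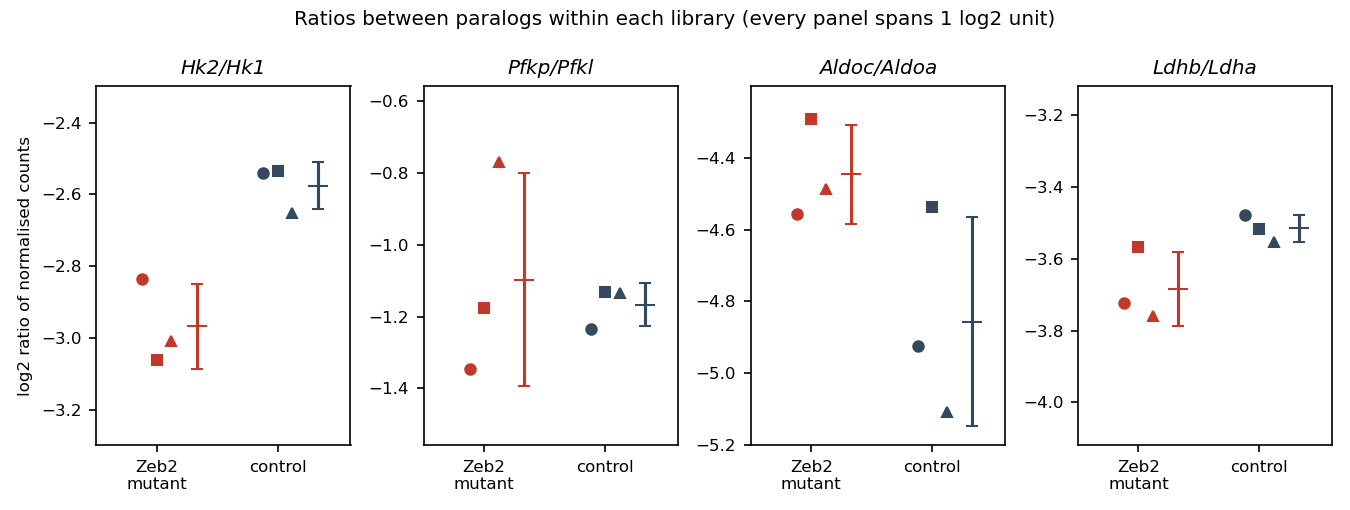
The log2 ratio of normalised counts of 4 paralog pairs within each library, Zeb2 mutant (red, left) and control (dark blue, right), with the mean ± SD beside each group; each panel spans 1 log2 unit. The Hk2 to Hk1 ratio is -3.06 to -2.84 in mutants and -2.65 to -2.54 in controls.

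Of 16 other glycolysis enzymes, 15 had a row, 14 were tested, 1 was called higher and 0 lower, against 0.928% and 0.218% of all genes tested. Eno2, the neuronal enolase, rose 1.25-fold, with 2671.3, 2902.6 and 2899.6 in the mutant libraries, against 2153.1, 2339.4 and 2301.7 in the control libraries (limma adjusted p = 0.0346). Every mutant library was higher. Its limma adjusted p was 0.158, 0.0694 and 0.0784 when control library 1, 2 or 3 was left out. It was 0.130 and 0.0894 for mutant library 2 or 3 and 0.0788 for mutant libraries 1 and 2 together. Eno1, the enolase of most tissues, had 22119.4, 22159.3 and 20751.3 in the mutant libraries, against 17634.9, 16253.3 and 20992.8 in the control libraries, which overlap at control library 3 (1.19-fold, limma adjusted p = 0.191; 0.0483 by DESeq2). The 14 tested enzymes had a median log2 fold change of 0.090, with 8 above 0 and 6 below.

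**Figure D4:**
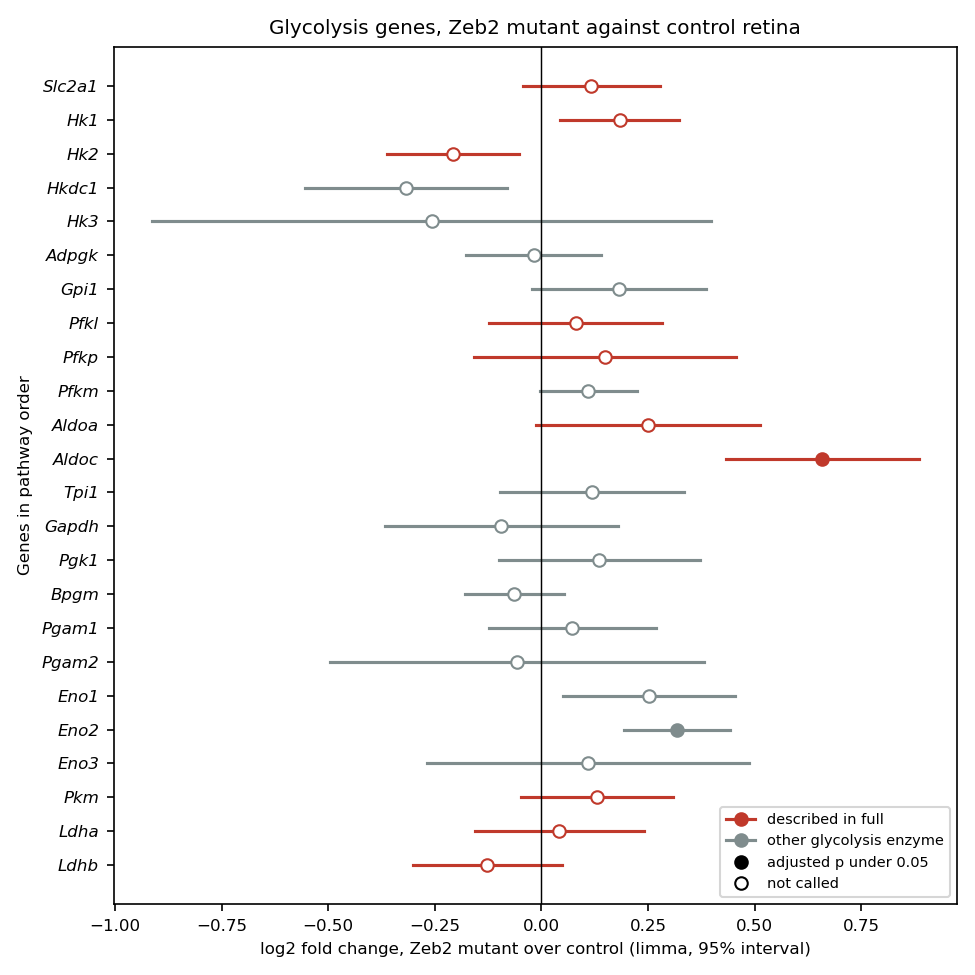
The log2 fold change of Zeb2 mutant over control for 24 glycolysis genes in pathway order, with the 95% interval from limma; red marks the 10 genes described in full, grey the other enzymes, and filled circles an adjusted p under 0.05. Aldoc (0.66) and Eno2 (0.32) are filled, and the intervals of most other genes hold 0.

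The steps around glycolysis held few calls, where 1.15% of all genes tested were called with limma and 17.3% had an unadjusted limma p under 0.05. Of 11 genes that regulate it 0 were called with limma (3 at an unadjusted p under 0.05), with a median log2 fold change of -0.019; the most abundant, Hnrnpa2b1 and Hnrnpa1, which steer the splicing of Pkm, stood at 0.0068 and -0.019. Of 15 transporters of hexoses, lactate and pyruvate 0 were called with limma (4 unadjusted), with a median of 0.031. Bsg, the chaperone of lactate transporters, had a log2 fold change of 0.10, and Slc16a3, a lactate exporter, one of -0.13. Of 10 tested genes of the pyruvate dehydrogenase complex and its kinases 0 were called with limma (1 unadjusted), at a median of 0.042. Pdhb, an E1 subunit, was at 0.053. Pdk2, a kinase that restrains the complex, was at 0.26 (limma adjusted p = 0.136; 0.0472 with the replicate block and 0.0319 by DESeq2) and was higher in every mutant library. Of 8 pentose phosphate pathway genes 0 were called with limma (1 unadjusted), at a median of 0.0015. Tkt, transketolase, was at -0.19 (limma adjusted p = 0.130; 0.0323 by DESeq2), and Taldo1, transaldolase, at 0.13. Of 12 gluconeogenesis and glycogen genes 0 were called with limma (1 unadjusted), at a median of 0.023, with Pgm2 at 0.11 and Pygb, the brain glycogen phosphorylase, at 0.086.

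Factors known to drive glycolysis genes were also read from the same test. Of all genes tested, 1.15% were called and 17.3% had an unadjusted limma p under 0.05. Of 10 genes of the Myc family 1 was called, and it fell, where 0.218% of all genes tested were called lower. Mycn, the Myc gene of retinal progenitors, had 4528.9, 4186.5 and 4424.1 normalised counts in the mutant libraries, against 5915.2, 5365 and 5262.6 in the control libraries. Every mutant library was lower than every control library, at a fold of 0.795 with a 95% interval of 0.726 to 0.8699 (limma adjusted p = 0.0355). The call was lost when control library 1, 2 or 3 was left out (limma adjusted p = 0.139, 0.0722 and 0.0580), mutant library 2 or 3 (0.130 and 0.0836), or mutant libraries 1 and 2 together (0.125). The list had 8 members below 0 and a median log2 fold change of -0.12, and Mycl stood at -0.15 (limma adjusted p = 0.218). Of 18 hypoxia genes and targets of Hif1a 0 were called with limma (2 at an unadjusted p under 0.05), with a median of 0.026. Hif1a itself, the hypoxia-inducible transcription factor gene, was at 14365.5, 13480.6 and 15365.4 in the mutant libraries, against 15298.6, 14493 and 14246 in the control libraries, which overlap. Ndrg1, a hypoxia-induced gene, had a log2 fold change of -0.17 (limma adjusted p = 0.209). In the list of stress and RNA quality genes 0 of 10 were called with limma (3 unadjusted), with Jun at -0.037 and Malat1 at 0.12. Over 19 alternatives Malat1 ranged from -0.11 to 0.60.

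Within the control group many members shared an order of libraries. Control library 3 was the highest and control library 2 the lowest control for 7 of the 10 members, and for 9 of the 14 other enzymes tested, against 17.6% of all genes tested; this arrangement was noticed in the values and was given no test. The median log2 difference of control library 3 over control library 2 was 0.29 for the members and 0.35 for the other enzymes, against 0 over all genes tested. Aldoa differed by 0.50 and Gapdh, the triose phosphate dehydrogenase gene, by 0.54 on that scale. Slc2a1 and Aldoc went the other way, at -0.057 and -0.065. The mutant libraries were closer together: for 7 of the 10 members the control range on the log2 scale was wider than the mutant range, against 40.3% of all genes tested. Rod markers moved with this arrangement, with a summed count of 76784.3 in control library 3 and 63378.9 in control library 2. Lens markers summed to 1365.2, 9594.9 and 3645.4 in control libraries 1, 2 and 3, highest where the members were mostly lowest. Control library 3 also held the most reads on genes, 32614805, against 26064213 and 26246179 in control libraries 1 and 2. The part of photoreceptor cells, lens cells and read depth in the spread was not tested.

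**Figure D5:**
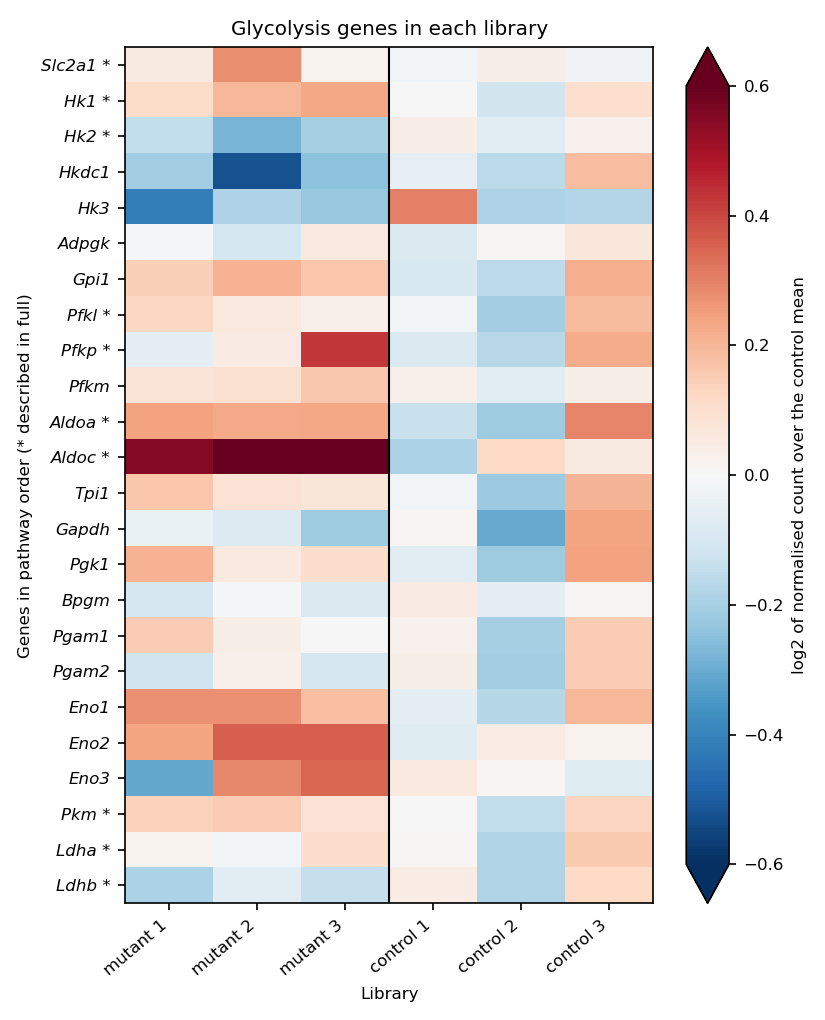
The log2 of each library's normalised count over the control mean for 24 glycolysis genes in pathway order (rows; an asterisk marks the 10 described in full) in the 3 mutant (left) and 3 control libraries (right); colours stop at ±0.6. Aldoc and Eno2 are red in every mutant library, and most genes are blue in control library 2 and red in control library 3.

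Markers of cell classes known to differ in their use of these isoforms were read beside the members. All 14 rod markers had a log2 fold change above 0, with summed normalised counts of 76529, 91291 and 94192.4 in mutants, against 67041.5, 63378.9 and 76784.3 in controls. Of the 14, 3 were called higher with limma and 12 had an unadjusted p under 0.05, against 0.928% and 17.3% of all genes tested. For 9 of the 14 every mutant library was above every control library, against 11.5%. The 9 progenitor markers were split, with 3 above 0 and 6 below, 0 called with limma, and sums of 94512.5 to 120961 in mutants and 118743 to 129385 in controls. An unadjusted limma p under 0.05 was reached by 5 of the 9, against 17.3% of all genes tested. Every mutant library was above every control library for 2 of the 9 and below for 4, against 11.5% and 11.7%. Erythroid markers, another possible source of Slc2a1 reads, summed to 81.4 to 119.9 in mutants and 43.7 to 290.5 in controls. The part of these cell classes in the values of the members was not tested.

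The genes whose profile over the 6 libraries was most like that of Aldoc on the log2 scale were Gm14505, Kcnd3os and Il17rd, each at Pearson r = 0.993. The first 2 are near the detection limit, with 9.6 to 20.3 normalised counts over the 6 libraries. Il17rd, an inhibitor of fibroblast growth factor signalling, had 777.7, 883.4 and 765.8 in the mutant libraries, against 469.6, 585.4 and 586.4 in the control libraries. These genes are described by their values alone, since 6 libraries in 2 groups give high correlations to many genes.

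Some members share sequence with other annotated genes, which limits how their reads could be assigned. The share of 50-base words of the longest coding transcript that also occur in transcripts of other genes was 34.4% for Pkm, 27.0% for Ldhb, 17.1% for Pfkp, 16.6% for Ldha and 13.5% for Aldoa, mostly in processed pseudogenes. For Aldoa the sharing genes included Aldoart1, which is protein-coding. For Pkm they included Gm49759, whose exons overlap those of Pkm by 767 bases on the same strand, so no strand setting would separate them. For Pfkp the shared words lay in Pitrm1, a gene on the opposite strand whose exons overlap those of Pfkp by 748 bases. Since no strand setting is given, reads of that overlap cannot be assigned, and Pitrm1 itself was at 1929 ± 25.0 in mutants and 2215 ± 77.1 in controls (SD, n = 3 each; limma adjusted p = 0.0817). The share was 2.55% for Hk1, 1.74% for Slc2a1 and 0.0543% for Pfkl. For Aldoc and Hk2 it was 0%, so their reads had no annotated near-identical copy to be confused with.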

How the data were processed

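Gene counts of 6 retina libraries were deposited as 1 table. Each deposited value is a signal, the authors' normalised count of a gene, rounded to 1 decimal, per the file headers. Per the submitters' processing notes, DESeq2, HTSeq, STAR 2.4.2a and cutadapt were used with build GRCm38; their roles and any strand setting are not stated. In each library 100% of the deposited signal values lay within 0.06 of whole multiples of 1 step (0.846 to 1.06 normalised counts), so whole reads were recovered, 26041200 to 32614805 per library; 0 other value columns were present.

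Values were tested as log2(normalised count + 1) in limma 3.58.1 under R 4.3.3, with a trended prior variance, 2-sided, on 16064 genes with a mean of at least 10, with Benjamini-Hochberg adjustment and calls under 0.05; fold changes are on that scale and understate changes of low genes. The alternatives changed the pseudocount (0.1, 5), the filter (none, or 50 in place of 10), the scaling (total, quantile, TMM, median of ratios), the weighting of arrays and the tool (edgeR 4.0.16 or DESeq2 1.42.0 on the recovered reads), added a replicate block, or left out libraries. The steps were tested on simulated data. Lengths, coordinates and overlaps came from GENCODE M21, promoters from RefSeq GRCm38.p6. The members and lists were chosen with earlier results of these data known. Besides the members, the text names Zeb2, of each pathway list up to 4 called genes, filled to 2 with the most abundant, and the 3 genes most correlated with the member of smallest p. Aldoart1 and Gm49759 were named for the sequence they share with members. Gapdh, Hkdc1, Pitrm1 and the markers named were named after their values were seen. Pklr, Fbp1, Fbp2, Pck1, Opn1mw, Rpe65, Hbb-y and Ahsp had no matching row and were not analysed here, and 2 genes of the lists are not reported here and were left out of their counts and sums. Markers of muscle, microglia and pigment epithelium gave sums of 311.7 to 387.7, 3024.5 to 3783.1 and 7888.3 to 8582.3 in mutants, and of 371.7 to 394.4, 1985.8 to 3427.4 and 7259.1 to 8343.4 in controls. Amacrine and horizontal cell markers summed to 21618.4 to 29098.7 in mutants and 33030.1 to 34816 in controls, lens markers to 890.2 to 4302.2 in mutants and 1365.2 to 9594.9 in controls, and cone markers to 20425.7 to 24922.6 in mutants and 17730.5 to 20154.1 in controls. Of the 14 amacrine and horizontal cell markers 2 were called lower with limma, against 0.218% of all genes tested. For 10 of the 14 every mutant library was below every control library, against 11.7% of all genes tested.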

Additional observations from a re-analysis of the deposited data

How the results depend on the processing

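Aldoc, Eno2 and Mycn kept their direction in all 19 alternatives, and Hk1 and Hk2 kept theirs and were called in 0 of 19. The count of members called was 1 in the main test and 0 to 1 with 1 library left out (Aldoa instead of Aldoc without control library 3), and 0 without mutant libraries 1 and 2. Over all genes, 184 were called, 149 higher and 35 lower. DESeq2 called 874, 537 higher and 337 lower. With 1 library left out the count was 27 to 600, the higher genes 27 to 358 and the lower genes 0 to 242. Without mutant libraries 1 and 2, 86 were higher and 79 lower.

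Signs of values near 0 turned round: Pfkl to -0.017 and Ldha to -0.046 without control library 2, and the Pfkp to Pfkl log2 ratio to -0.095 without mutant library 3. With any 1 library left out, Pfkl reached 0.18, Ldha 0.12, that ratio 0.19, Hnrnpa2b1 0.039, Hnrnpa1 -0.075, Hif1a -0.076, Jun -0.096 and Malat1 0.40 at the other end of their ranges. Hnrnpa2b1 turned to -0.0065 and -0.012 without mutant library 1 or 3, Jun to 0.013 without mutant library 2 and Malat1 to -0.11 without mutant library 3. Malat1 was at 0.60 when both mutant libraries 1 and 2 were left out. Hnrnpa1 turned to 0.023 with quantile normalisation, 0.065 without mutant library 2, and 0.036 when both mutant libraries 1 and 2 were left out. Hif1a turned to 0.015 with quantile normalisation, 0.0014 without control library 1, 0.018 without mutant library 2, and 0.067 when both mutant libraries 1 and 2 were left out. The cause was not tested.

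With the replicate number as a block, 248 genes were called, 190 higher and 58 lower, and of the 10 members, Zeb2 and the genes named from the pathway lists 1, Pdk2, gained a call and 0 lost one. Values not called also moved: without control library 2 the log2 fold change of Pkm was 0.059 in place of 0.13 and that of Ldhb -0.22 in place of -0.13, and without control library 3 Pkm was 0.20 and Ldhb -0.064. Deviations from the group means correlated at 0.016, 0.15 and -0.063 for mutant and control libraries of the same number 1, 2 and 3. Between libraries of different numbers they correlated at -0.24 to 0.22. With 3 libraries per group these values cannot decide whether the numbers pair the samples. No scaling moved the median log2 fold change of all genes beyond -0.011 to 0.0079. Each member had at least 490 reads in each library; changes within the intervals given cannot be resolved with these libraries.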
